A study of Mus musculus with 568 samples.

Results

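The clustered histone genes are the replication-type genes whose symbols begin with Hist1h, Hist2h, Hist3h or Hist4h. They were chosen by symbol in the GENCODE vM21 annotation of mm10, which holds 70 of them. Of the 16335 genes measured in bulk RNA, 60 belonged to this set, and of the 15718 genes measured in single cells, 53 did. By symbol, 6 of the 60 belong to the linker histone H1, 19 to H2A, 16 to H2B, 6 to H3 and 13 to H4. Among them, Hist1h2aj, Hist1h2al and Hist3h2bb-ps are annotated as pseudogenes. Hist1 symbols, on chromosome 13, gave 49 of the 60, the Hist2 cluster on chromosome 3 gave 7, the Hist3 cluster on chromosome 11 gave 3, and Hist4h4 stands alone on chromosome 6. Of the Hist1 members, Hist1h2al lies at 51202727 to 51203065, far from the others and thus outside the Hist1 cluster. 4 more H3 genes (Hist1h3d, Hist1h3f, Hist1h3g and Hist1h3i) stood in the bulk table under older identifiers and were counted apart, and 6 genes (Hist1h2bh, Hist1h2bm, Hist1h3h, Hist2h2aa2, Hist2h2bb and Hist2h3c1) were not analysed here in bulk.

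The cells came from XRep, a female embryonic stem cell (ESC) line that is a hybrid of 129S1/SvImJ and CAST/EiJ. All groups shared a truncated Tsix on the 129S1/SvImJ (mus) X chromosome, a GFP reporter on that X (XGFP), a tdTomato reporter on the CAST/EiJ (cas) X, and doxycycline-driven Prdm1, Prdm14 and Tfap2c. 4 bulk libraries each were made from ESCs, from epiblast-like cells (EpiLCs) after 4 days, and from primordial germ cell-like cells (PGCLCs) after 5 days with 1.5 µg/ml doxycycline, sorted as SSEA1+ CD61+ and then as XGFP+ or XGFP-. The reporter separates PGCLCs in which the mus X chromosome was active (XGFP+) from those in which it was not (XGFP-), and ESCs and EpiLCs were not sorted. Single cells were sorted from reconstituted ovaries (rOvaries), in which PGCLCs had been cultured for 6 days with 75000 female gonadal and mesonephric somatic cells. All rOvary populations were sorted as tdTomato+. They were XGFP+ cells from XGFP+ PGCLCs (constitutive), and XGFPhigh, XGFPintermediate and XGFPlow cells from XGFP- PGCLCs. Single ESCs were measured as well. The study describes the 4 bulk libraries of a group both as 2 clones with 2 technical replicates each and as 4 biological replicates. The labels do not tie a library to a clone, so p-values measure the spread between libraries and may be too small.

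Replication-type histone genes are transcribed mainly in S phase, when new DNA has to be packed. H2A, H2B, H3 and H4 form the core particle around which DNA is wound, and H1 binds where DNA enters and leaves it. Their mRNAs usually carry no poly(A) tail. The 3′ end is instead cut behind a short stem-loop that is bound by SLBP, and that stem-loop also governs translation and decay of the mRNA. A few members are tissue types, such as H1t (Hist1h1t), TH2A (Hist1h2aa) and TH2B (Hist1h2ba), which are best known from the testis.

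The stem-loops are shown because an mRNA that ends behind one has no poly(A) tail to which oligo-dT could bind. They were searched in the annotated transcripts behind the stop codon, on the sense strand, and are written as DNA from 5′ to 3′ with the stem in capitals and the loop in lower case. 46 members held one, 21 to 58 bases behind the stop codon, and 44 of the 48 members with at least 60 annotated bases there did. Among all 21901 coding genes searched, 60 (0.274%) held one. The stem differed by histone class: the first form below was found in 26 members of H1, H2A, H2B and H3, and the second in 7 members, all H4. The third was found in 6 members, Hist1h1t among them. The 4 members with a long annotated 3′ end and no match were Hist1h2bc, Hist1h2bq, Hist1h2br and Hist2h2be.

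H1, H2A, H2B and H3 form: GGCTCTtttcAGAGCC
H4 form: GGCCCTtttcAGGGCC
Form with an A at the end of the loop: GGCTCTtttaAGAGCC

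Promoters are shown for 4 members that the results below turn on, the linker histone genes Hist1h1a and Hist1h1c, which changed in opposite directions in PGCLCs, and Hist1h2aa and Hist3h2ba, which differed between the PGCLC groups, since histone promoters are known for a few short boxes. Windows of 300 bases, from 250 before to 50 after the RefSeq transcription start (GRCm38.p6), were matched for 62 members in 64 entries, of which 63 were distinct. Capitals mark, on both strands, the CCAAT box (letters CCAAT), the core of the TATA element (TATAAA), the octamer known from H2B promoters (ATTTGCAT), the AC box known from H1 promoters (AAACACA) and an E2F core (TTTCGCGC), and no 2 motifs overlapped. CCAAT was in 85.9% of the members' windows and in 37.4% of all 32851 promoter windows, TATAAA in 54.7% and 13.6%, ATTTGCAT in 21.9% and 1.74%, AAACACA in 14.1% and 7.18%, and TTTCGCGC in 14.1% and 0.323%. CCAAT was in every window of H1, H2A, H2B and H3 members but in 3 of 12 H4 windows (25%). ATTTGCAT was found in 7 H2A and 7 H2B windows, and AAACACA in 5 of the 6 H1 windows, Hist1h1a being the exception. The windows of 10 head-to-head pairs of an H2A and an H2B gene overlap, so a site in their shared bases counts for both genes. The members' shares are therefore not over independent windows.

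Hist1h1a, chr13:23763418-23763717, plus strand: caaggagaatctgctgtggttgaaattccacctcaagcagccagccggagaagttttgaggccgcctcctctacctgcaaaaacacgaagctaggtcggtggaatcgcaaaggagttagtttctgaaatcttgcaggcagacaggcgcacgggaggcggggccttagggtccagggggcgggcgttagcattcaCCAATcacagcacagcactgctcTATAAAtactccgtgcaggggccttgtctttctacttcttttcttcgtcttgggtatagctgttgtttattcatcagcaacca
Hist1h1c, chr13:23738557-23738856, plus strand: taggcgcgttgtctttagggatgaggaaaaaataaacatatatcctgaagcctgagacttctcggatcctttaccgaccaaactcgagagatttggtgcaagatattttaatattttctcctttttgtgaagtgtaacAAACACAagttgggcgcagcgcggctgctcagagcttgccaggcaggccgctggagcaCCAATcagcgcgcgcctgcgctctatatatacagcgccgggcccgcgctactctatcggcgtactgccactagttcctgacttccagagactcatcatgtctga
Hist1h2aa, chr13:23934187-23934486, plus strand: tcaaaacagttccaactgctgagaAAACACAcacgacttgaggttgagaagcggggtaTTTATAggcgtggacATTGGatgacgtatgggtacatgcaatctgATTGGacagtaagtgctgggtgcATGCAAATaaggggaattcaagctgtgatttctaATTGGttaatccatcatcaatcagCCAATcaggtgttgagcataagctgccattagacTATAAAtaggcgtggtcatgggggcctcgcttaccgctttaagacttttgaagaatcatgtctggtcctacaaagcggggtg
Hist3h2ba, chr11:58948661-58948960, plus strand: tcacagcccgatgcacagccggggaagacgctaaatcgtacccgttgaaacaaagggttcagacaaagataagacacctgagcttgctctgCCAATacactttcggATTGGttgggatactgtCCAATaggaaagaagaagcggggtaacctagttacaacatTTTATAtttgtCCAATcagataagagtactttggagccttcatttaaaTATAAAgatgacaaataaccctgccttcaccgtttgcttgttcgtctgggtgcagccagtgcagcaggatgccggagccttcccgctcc

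The bulk libraries held 29.8 M to 46.5 M reads on genes, recovered from the steps between the normalized values. All 5 ESC markers were lower and all 4 EpiLC markers higher in EpiLCs than in ESCs, and all 4 PGCLC markers were higher in both PGCLC groups than in EpiLCs. Rank correlations between libraries of a group were 0.9905 to 0.997, and no library pair agreed within sampling noise over the members. EpiLC replicate 1 stood above the other EpiLC libraries in most members, and results that rest on it are given with that library named.

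The members took 0.591% to 0.709% of the reads in ESC libraries, 0.628% to 0.943% in EpiLC libraries, 0.442% to 0.596% in XGFP+ PGCLC and 0.477% to 0.54% in XGFP- PGCLC libraries. The EpiLC range lay above both PGCLC ranges. Their summed normalized counts in libraries 1 to 4 were 253954, 264755, 224702 and 238007 in ESCs. In EpiLCs they were 347580, 253280, 229774 and 263148. In XGFP+ PGCLCs they were 225242, 164636, 209598 and 206990, and in XGFP- PGCLCs 205731, 178910, 186915 and 204342. All 4 EpiLC sums stood above all 8 PGCLC libraries, whereas ESC and EpiLC libraries overlapped, and so did the PGCLC groups. The mean sum of ESCs was 245355 ± 17615 and that of EpiLCs 273445 ± 51367, while XGFP+ PGCLCs had 201616 ± 25938 and XGFP- PGCLCs 193975 ± 13197 (SD, n = 4). Each class kept nearly the same share of the sum: H4 held 29.2%, 30%, 28.2% and 27.2% in the 4 groups in that order, and H1 27.8%, 26.4%, 28.9% and 29.4%. In bulk RNA, fewer cells in S phase and less histone RNA per cell cannot be told apart.

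**Figure D1:**
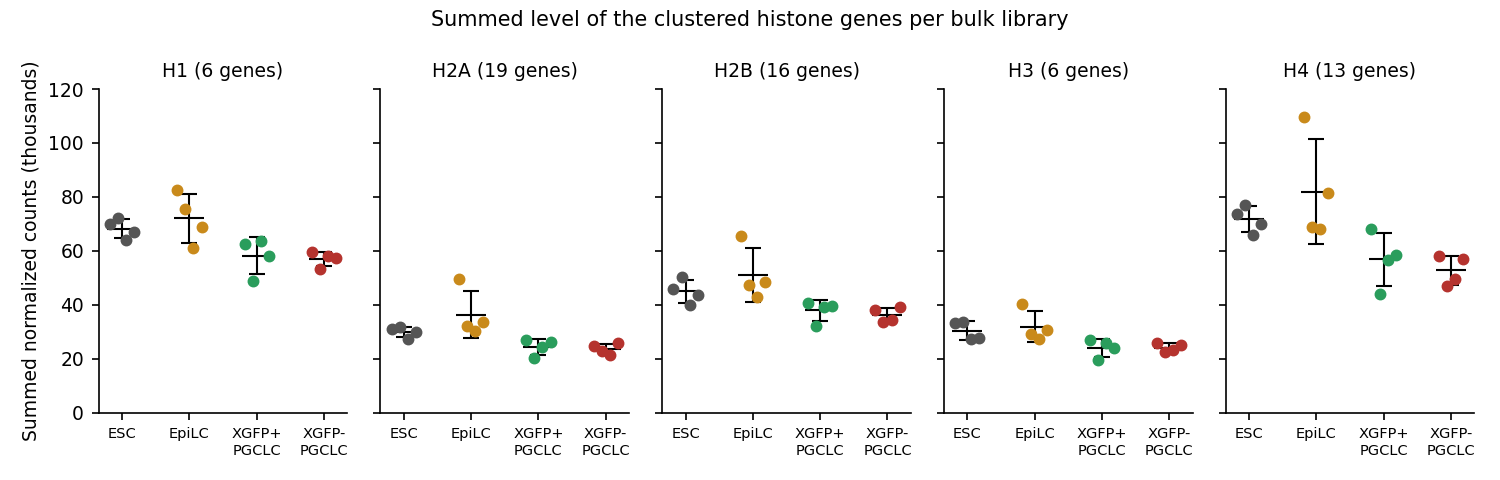
Summed normalized counts (in units of 1000, linear axis from 0) of the bulk members of each histone class in the 16 bulk libraries, with one point per library and the mean ± SD per group as bars. In every class the lowest means are those of the PGCLC groups, and the highest single point is EpiLC replicate 1, which reached 49500 for H2A where the other EpiLC libraries lay between 30351 and 33478.

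Levels between genes can be compared only per length, and many members have an annotated 3′ end that runs far past the stem-loop, so that their values per kilobase are low. Per kilobase of annotated exon, Hist1h1a (H1.1, 741 bases) was the highest of the 60 members in ESCs at 31060 normalized counts per kb and in EpiLCs at 30192. In PGCLCs other members led, Hist1h4k with 17236 normalized counts per kb in XGFP+ and Hist1h4f with 18160 in XGFP- PGCLCs. Both were named after their values were seen. Of the read-length windows of Hist1h1a 100% are unique among histone transcripts, but only 40.4% of those of Hist1h4k. Hist1h4k had 22480 normalized counts per kb in ESCs and 27026 in EpiLCs. The order of members may therefore also depend on how well their reads can be placed, which was not tested. The 10 members with the most reads held 49.7%, 48.1%, 52.3% and 52.2% of the members' counts in the 4 groups.

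The first step, from ESCs to EpiLCs, brought mostly small changes and raised a few members steeply. The log2 fold change was above 0 in 49 of 60 members and below 0 in 11. 10 of 60 members (16.7%) rose and none fell, at a Benjamini-Hochberg FDR below 0.001 in limma on log2(normalized count + 1), while 24.9% of all 16281 genes tested rose and 22.9% fell. At an unadjusted p below 0.05, 21 members were higher and 1 lower, and edgeR and DESeq2 each called 10 higher and 0 lower. The median log2 fold change of the members was 0.13, beside 0.01 over all genes tested. 16 members were higher without overlap between the groups and 0 were lower, where 31.2% and 29.5% of all genes were. No H3 and no H4 member was called, and all 3 members of the Hist3 cluster rose.

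Hist3h2ba, an H2B gene of the Hist3 cluster on chromosome 11 (58948920 to 58949533, 614 exonic bases), changed most. Its normalized counts were 70.7, 94.9, 91.5 and 95 in the ESC libraries and 1273, 895, 817 and 867 in the EpiLC libraries. Every EpiLC library was therefore far above every ESC library. The log2 fold change was 3.42 ± 0.21 (SE), with a limma FDR of 6.5e-11. Its neighbours behaved alike: Hist3h2a, an H2A gene, rose by 2.35 on the log2 scale (limma FDR 2.1e-05) from 30.3 ± 6.02 to 172 ± 83.9 normalized counts, and Hist3h2bb-ps, annotated as a processed pseudogene, rose by 2.05 (limma FDR 7.3e-09) from 62.5 ± 3.75 to 263 ± 30.4 (SD, n = 4).

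The tissue-type genes Hist1h1t, Hist1h2aa and Hist1h2ba of the Hist1 cluster on chromosome 13 also rose. Hist1h1a, which was listed as a tissue type too, did not, with 23015 ± 1834 normalized counts in ESCs and 22373 ± 2467 in EpiLCs (SD, n = 4). Hist1h1t, the testis linker histone, had normalized counts of 57.2, 102.8, 50.5 and 67.9 in ESCs and 626, 520, 587 and 563 in EpiLCs. Hist1h2aa, which encodes TH2A, had 157.2, 202.6, 128.3 and 178.7 in ESCs and 1413, 875, 998 and 864 in EpiLCs. In both genes all EpiLC libraries lay far above all ESC libraries, and the log2 fold changes were 3.08 ± 0.24 for Hist1h1t (limma FDR 1.8e-09) and 2.62 ± 0.36 for Hist1h2aa (limma FDR 3.9e-06). Hist1h2ba, which encodes TH2B and lies head to head with Hist1h2aa, had 1072, 1254, 846 and 852 in ESCs and 2415, 1438, 1500 and 1473 in EpiLCs. EpiLC replicate 1 was far above the other 3 EpiLC libraries. The groups did not overlap and the log2 fold change was 0.75 ± 0.16 (limma FDR 3.3e-04), but the call was lost without ESC replicate 3 or without ESC replicate 4, and with the 2 groups alone, with FDRs of up to 0.0025.

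The other rises were of Hist2h2be by 2.37 on the log2 scale (limma FDR 5.8e-07), and, below 2-fold, of Hist1h2an by 0.86, Hist1h2bf by 0.85 and Hist1h1e by 0.67. Hist2h2be, an H2B gene with a long 3′ end and no stem-loop match, is known to give polyadenylated mRNA and stood at only 11.9 ± 3.83 normalized counts in ESCs and 65.9 ± 22.1 in EpiLCs (SD, n = 4). Hist1h1e, which encodes H1.4, stood at 7691, 8149, 6762 and 8032 in ESCs and at 13836, 12454, 10441 and 12060 in EpiLCs. It had the most reads of the 10, and its groups did not overlap. Hist1h2an and Hist1h2bf were named after their values were seen, and only 18.2% of the 125-base windows of Hist1h2an are unique among histone transcripts, so its reads cannot be placed with certainty.

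**Figure D2:**
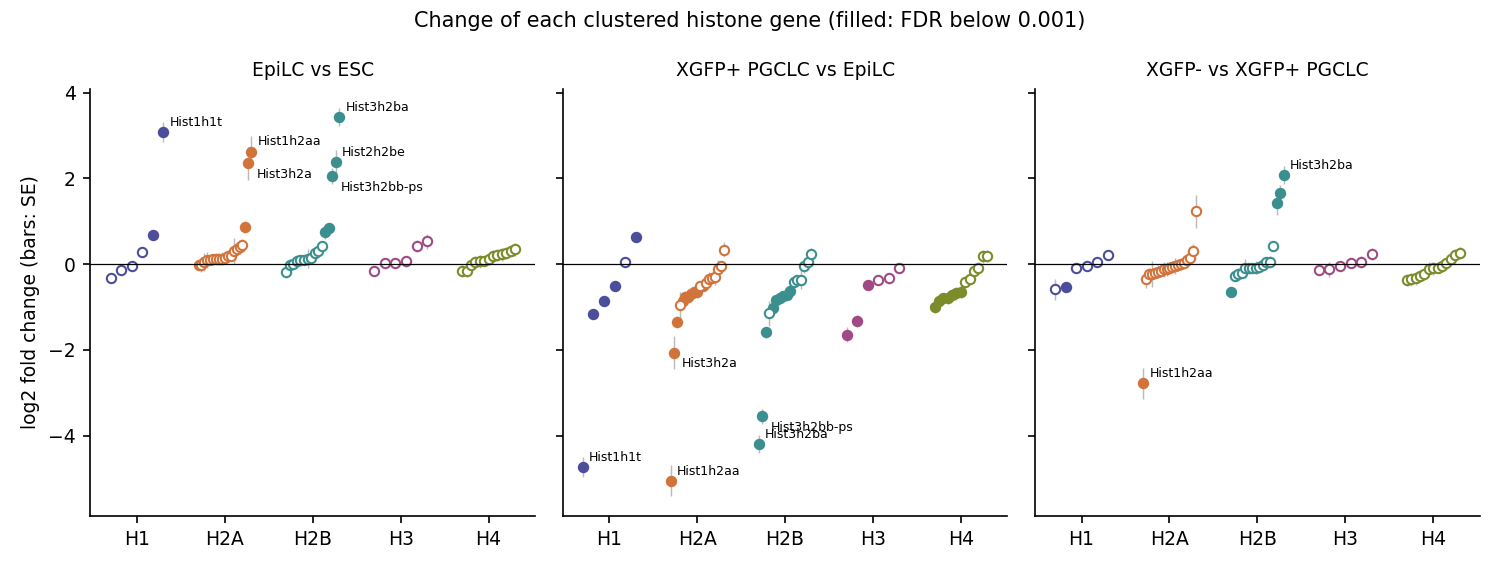
Log2 fold change of each of the 60 members (y axis, with SE bars) by histone class, ordered by size within a class, in EpiLCs against ESCs, XGFP+ PGCLCs against EpiLCs and XGFP- against XGFP+ PGCLCs; filled points have a limma FDR below 0.001. 10 members are filled in the first panel, all above 0, 34 in the second, 33 of them below 0, and 6 in the third, 3 on each side.

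From EpiLCs to PGCLCs more than 50% of the members fell. In XGFP+ PGCLCs 33 of 60 members (55%) fell and 1 rose, where 29.5% of all genes tested fell and 27.8% rose (limma, FDR below 0.001). The median log2 fold change was -0.65 for the members and -0.0 for all genes. In XGFP- PGCLCs 35 members fell (58.3%) and 1 rose, where 31.9% of all genes fell and 29.9% rose, and the medians were -0.64 and -0.03. Both comparisons share the EpiLC libraries. 38 members in XGFP+ and 39 in XGFP- PGCLCs were lower without overlap, where 36.1% and 38% of all genes were, and 1 member was higher without overlap in each, where 33.8% and 35.5% of all genes were. Most decreases were moderate, and 12 and 16 members fell by more than 1 on the log2 scale. Counting only members with at least 50% unique windows, 25 fell in each comparison, and with the 4 H3 genes under older identifiers 36 and 38 fell.

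The decreases ran through all classes. In XGFP+ PGCLCs 10 of 19 H2A members fell, with a median log2 fold change of -0.66, 9 of 16 H2B members (median -0.73), 3 of 6 H3 members (median -0.43), 7 of 13 H4 members (median -0.64) and 4 of 6 H1 members (median -0.69). Hist1h4d, the H4 gene with the most reads, had normalized counts of 23195, 14465, 13971 and 16057 in EpiLCs, 12045, 8134, 8620 and 9843 in XGFP+ PGCLCs and 9654, 7457, 7366 and 8509 in XGFP- PGCLCs. All EpiLC libraries stood above all PGCLC libraries, and the log2 fold changes were -0.79 ± 0.14 (limma FDR 5.5e-05) and -1.01 ± 0.14 (limma FDR 2.8e-06). Hist1h2be, an H2B gene, went from 5768, 4147, 3775 and 4370 to 2967, 2190, 2487 and 2670 and to 2546, 1996, 2168 and 2213, again without overlap, with log2 fold changes of -0.8 ± 0.12 (limma FDR 8.5e-06) and -1.0 ± 0.12 (limma FDR 4.1e-07).

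The 4 members that fell most in each PGCLC group, Hist1h2aa, Hist1h1t, Hist3h2ba and Hist3h2bb-ps, had all risen in EpiLCs. Hist1h2aa had 36.3, 30, 21.1 and 34 normalized counts in XGFP+ PGCLCs and 2.6, 4.06, 0.962 and 10.3 in XGFP- PGCLCs, after 864 to 1413 in EpiLCs. Hist1h1t had 15.4, 18.8, 25.8 and 24.2 in XGFP+ libraries and 11.3, 20.3, 9.62 and 14.4 in XGFP- libraries, after 520 to 626 in EpiLCs. For Hist1h2aa the 3 groups were fully apart from each other, while for Hist1h1t the PGCLC groups overlapped. Against EpiLCs, XGFP+ PGCLCs differed by -5.05 ± 0.36 in Hist1h2aa (limma FDR 4.3e-10), by -4.73 ± 0.24 in Hist1h1t (limma FDR 3.5e-12) and by -4.19 ± 0.21 in Hist3h2ba (limma FDR 3.3e-12) on the log2 scale. Of the 10 members that rose from ESCs to EpiLCs, 9 fell in XGFP+ PGCLCs, and Hist2h2be was at -1.15 ± 0.28 (limma FDR 0.00128). In XGFP- PGCLCs 8 fell, while Hist3h2a was at -0.83 ± 0.38 (limma FDR 0.0527) and Hist2h2be at 0.27 ± 0.28 (limma FDR 0.386). The rise and the fall share the EpiLC libraries, so a high EpiLC value enters both.

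Not every member with many reads fell. By total count, not per length, the leading H2B genes Hist1h2bg and Hist1h2bb had log2 fold changes of 0.04 ± 0.13 (limma FDR 0.773) and 0.24 ± 0.13 (limma FDR 0.0969) from EpiLCs to XGFP+ PGCLCs. The leading H2A gene by count, Hist1h2ab, had -0.05 ± 0.13 (limma FDR 0.752). The H3 genes Hist1h3e and Hist1h3c had -0.33 ± 0.13 (limma FDR 0.0228) and -0.08 ± 0.11 (limma FDR 0.54), and Hist1h3a fell by 0.49 on the log2 scale (limma FDR 2.7e-04), a call that was lost without EpiLC replicate 1, without XGFP+ replicate 2 and with the 2 groups alone. Other members with many reads lay near the threshold: Hist1h2bk (-0.41 ± 0.12, limma FDR 0.00428), Hist1h2bc (-0.38 ± 0.1, limma FDR 0.00291), Hist1h4a (-0.42 ± 0.14, limma FDR 0.00936) and Hist1h4i (-0.34 ± 0.14, limma FDR 0.036) were not called in XGFP+ PGCLCs, and Hist1h2bk, Hist1h2bc and Hist1h4i fell in XGFP- PGCLCs. The call of Hist1h2bc there was lost without EpiLC replicate 1 and without XGFP- replicates 1, 2 or 3, and that of Hist1h4i without XGFP- replicate 3. For Hist1h2bg, Hist1h2bb, Hist1h2ab, Hist1h3e and Hist1h3c the EpiLC and XGFP+ PGCLC libraries overlapped.

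Between the PGCLC groups few members differed. Of 60 members, XGFP- PGCLCs had 3 (5%) at a higher and 3 (5%) at a lower level than their XGFP+ counterparts, where 11.3% of all genes tested were higher and 12.5% lower (limma, FDR below 0.001). The median log2 fold change of the members was -0.08, beside 0.01 over all genes. 5 members were higher and 3 lower without overlap, where 24.0% and 21.7% of all genes were. This fit had no pairing of same-numbered libraries. With the replicate number as a block 4 members were higher, the added one being Hist1h2bf (log2 fold change 0.42, limma FDR 0.0059 without and 0.00069 with the block).

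The 3 higher members were all of class H2B: Hist3h2ba, the pseudogene Hist3h2bb-ps and Hist2h2be. Hist3h2ba had normalized counts of 70.7, 30, 46.9 and 67.2 in XGFP+ libraries and 246, 204, 207 and 211 in XGFP- libraries. All XGFP- libraries were above all XGFP+ libraries, with a log2 fold change of 2.07 ± 0.21 (limma FDR 3.3e-07), and all were below the EpiLC libraries. Hist3h2bb-ps had 17.2, 18.8, 22 and 29.6 in XGFP+ libraries and 59.8, 58.9, 79.8 and 84.5 in XGFP- libraries, a log2 fold change of 1.66 ± 0.18 (limma FDR 5.3e-07). Hist2h2be had 21.8, 22.5, 31.6 and 39.4 in XGFP+ libraries and 85.8, 55.9, 90.4 and 79.4 in XGFP- libraries. The log2 fold change of Hist2h2be was 1.42 ± 0.28 (limma FDR 4.4e-04), and leaving out any one of XGFP+ replicates 1 and 2 or XGFP- replicates 1, 3 and 4 raised the FDR above 0.001, to at most 0.0022. Hist3h2a had 1.23 ± 0.38 (limma FDR 0.0116) without overlap between the groups.

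The 3 lower members were Hist1h2aa, Hist1h2bj and Hist1h1a. Hist1h2aa was lower in all 4 XGFP- libraries, with a log2 fold change of -2.78 ± 0.36 (limma FDR 5.8e-06). Hist1h2bj, an H2B gene, had 1798, 1548, 1726 and 1747 normalized counts in XGFP+ and 1134, 1011, 1036 and 1185 in XGFP- PGCLCs, with a log2 fold change of -0.64 ± 0.09 (limma FDR 9.0e-06). Its groups lay well apart, and ESCs (2155 to 2299) and EpiLCs (2417 to 3438) stood above both. Hist1h1a is described with the linker histones.

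Against ESCs, XGFP+ PGCLCs had 17 lower members (28.3%) and 1 higher (1.67%), where 24.9% of all genes tested were lower and 25% higher, and the median log2 fold changes were -0.39 and 0.0. 32 members were lower and 1 higher without overlap, where 31.6% and 30.8% of all genes were. The largest decreases were of Hist1h2aa (-2.43 ± 0.36, limma FDR 9.4e-06), Hist1h1t (-1.65 ± 0.24, limma FDR 6.7e-06) and Hist3h2bb-ps (-1.5 ± 0.18, limma FDR 5.1e-07). The higher member was Hist2h2be (1.22 ± 0.28, limma FDR 8.6e-04), whose call was lost under 11 alternatives, with FDRs of up to 0.0045, among them leaving out any of ESC replicates 1, 3 and 4 or XGFP+ replicates 2, 3 and 4. Hist3h2ba was at -0.77 ± 0.21 (limma FDR 0.00358).

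The linker histone genes did not move together. Hist1h1a, which encodes H1.1, had normalized counts of 24301, 24826, 21038 and 21895 in ESCs and 24514, 24132, 19202 and 21642 in EpiLCs. In XGFP+ PGCLCs it had 13020, 10775, 12518 and 12395, and in XGFP- PGCLCs 8551, 8079, 7797 and 8970. ESCs and EpiLCs overlapped, XGFP+ PGCLCs lay below both, and XGFP- PGCLCs lay below all others. The log2 fold change was -0.87 ± 0.08 from EpiLCs to XGFP+ PGCLCs (limma FDR 1.3e-08) and -0.54 ± 0.08 between XGFP- and XGFP+ PGCLCs (limma FDR 2.3e-05).

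Hist1h1c, which encodes H1.2 and is known to give polyadenylated mRNA as well, went the other way and was the one member that rose in PGCLCs. It had 14531, 14918, 12052 and 12385 normalized counts in ESCs and 12585, 11254, 8835 and 10263 in EpiLCs. In XGFP+ PGCLCs it had 17823, 13683, 19158 and 16285, and in XGFP- PGCLCs 17658, 15404, 18588 and 17351. Both PGCLC groups stood above EpiLCs and overlapped each other and, in XGFP+, the ESCs. The log2 fold changes against EpiLCs were 0.64 ± 0.11 (limma FDR 3.5e-05) and 0.69 ± 0.11 (limma FDR 1.3e-05).

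Hist1h1e fell after its rise in EpiLCs, to 6068, 4646, 5325 and 5764 normalized counts in XGFP+ PGCLCs and 5440, 4991, 4874 and 5227 in XGFP- PGCLCs. Both PGCLC groups lay below all ESC and EpiLC libraries, and the log2 fold change from EpiLCs to XGFP+ PGCLCs was -1.16 ± 0.09 (limma FDR 8.1e-10). Hist1h1b, which encodes H1.5, fell by 0.5 on the log2 scale in the same comparison (limma FDR 3.2e-05). Hist1h1d, which encodes H1.3, had 16398 ± 2611 normalized counts in EpiLCs, 16952 ± 2541 in XGFP+ PGCLCs and 19649 ± 880 in XGFP- PGCLCs (SD, n = 4), and its log2 fold changes against EpiLCs were 0.05 ± 0.1 (limma FDR 0.676) and 0.27 ± 0.1 (limma FDR 0.0209).

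As a share of all H1 counts, which rests on annotated genes of unequal length, Hist1h1a went from 33.7% ± 1.08 in ESCs and 31.1% ± 0.961 in EpiLCs to 21% ± 1.03 in XGFP+ and 14.6% ± 0.965 in XGFP- PGCLCs (SD, n = 4). Hist1h1c had 19.7% ± 1.22, 14.9% ± 0.329, 28.7% ± 0.977 and 30.2% ± 1.33 in the same order. Hist1h1d had 19.6% ± 0.658, 22.7% ± 0.868, 29% ± 1.19 and 34.4% ± 0.593. Hist1h1a thus held the largest share in every ESC and EpiLC library, and Hist1h1c and Hist1h1d each held more than Hist1h1a in every PGCLC library. Hist1h1t stayed below 1% in all libraries, with 0.805% ± 0.115 in EpiLCs.

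**Figure D3:**
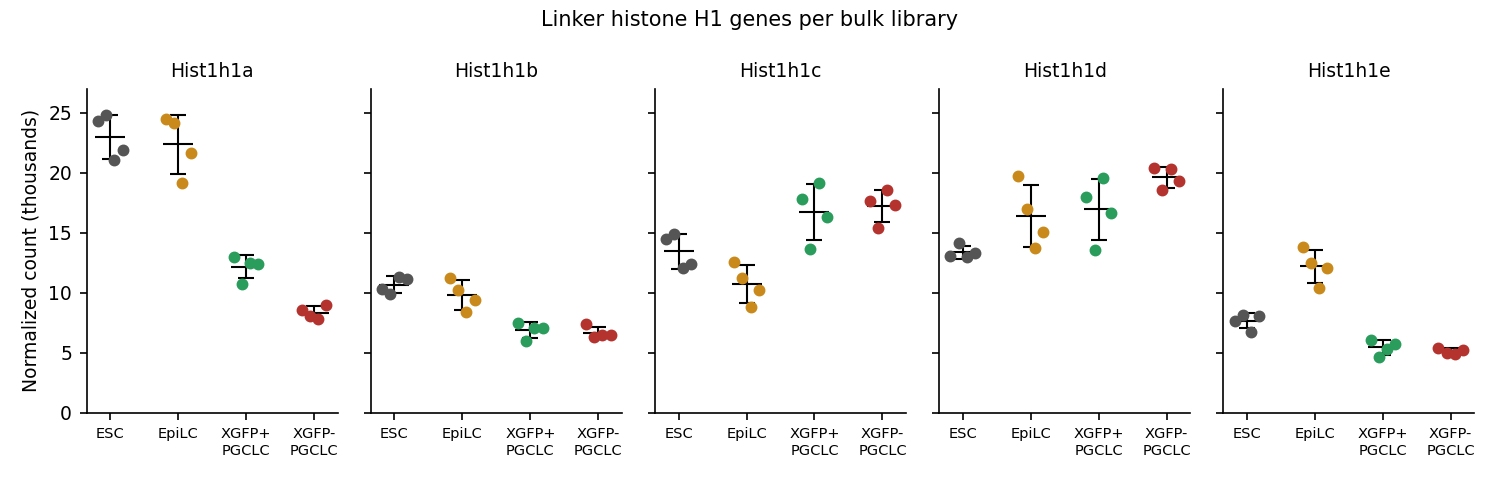
Normalized counts (in units of 1000, linear axis from 0) of 5 linker histone H1 genes in the 16 bulk libraries, with one point per library and mean ± SD bars. Hist1h1a falls from 23015 in ESCs to 8349 in XGFP- PGCLCs, while Hist1h1c stands at 10734 in EpiLCs and at 16737 and 17250 in the PGCLC groups.

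Many H2A and H2B genes stand head to head, and the promoter windows above let their partners be compared. In 10 such pairs the H2A and H2B windows shared 220 to 279 of 300 bases. The pairs described here were chosen after their values were seen and do not stand for all 10. Hist1h2bl and Hist1h2ai, sharing 272 bases, moved alike, from means of 6095 and 4031 normalized counts in EpiLCs to 3914 and 2453 in XGFP+ PGCLCs. In XGFP- PGCLCs they stood at 4011 and 2401, but only 12.6% of the windows of Hist1h2ai are unique. The partners in the following pairs differed more. Hist1h2ag and Hist1h2bj, sharing 252 bases, both fell from EpiLCs to XGFP+ PGCLCs, by 0.87 and 0.71 on the log2 scale, but between XGFP- and XGFP+ PGCLCs they were at -0.18 ± 0.15 (limma FDR 0.345) and -0.64 ± 0.09. Hist1h2bf and Hist1h2ad, sharing 273 bases, were at 0.85 and 0.13 from ESCs to EpiLCs and at -1.59 and -0.66 from EpiLCs to XGFP+ PGCLCs. Hist1h2ba and Hist1h2aa, sharing 220 bases, were furthest apart: 0.75 and 2.62 from ESCs to EpiLCs, -1.02 and -5.05 from there to XGFP+ PGCLCs, and -0.08 ± 0.16 (limma FDR 0.711) and -2.78 ± 0.36 between XGFP- and XGFP+ PGCLCs. The differences within pairs were not tested. 23 of the 70 members have fewer than 50% unique windows, 19 of them in the bulk table, so near-identical genes may share reads; of the genes in these pairs, Hist1h2aa has only unique windows and Hist1h2ba 79.6%.

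The genes that make and use histone mRNA were counted from lists. Their counts are read against the shares of all genes, of which 24.9% rose and 22.9% fell from ESCs to EpiLCs, 27.8% and 29.5% from EpiLCs to XGFP+ PGCLCs, and 11.3% and 12.5% were higher and lower in XGFP- against XGFP+ PGCLCs. Of 20 S phase genes, 4 rose and 4 fell from ESCs to EpiLCs, and 2 rose and 13 fell from EpiLCs to XGFP+ PGCLCs, with a median log2 fold change of -0.39. 2 rose and 13 fell in XGFP- PGCLCs too (median -0.46). Between XGFP- and XGFP+ PGCLCs 2 were lower and none higher, Ccne1 (cyclin E1, -0.99, limma FDR 3.2e-09) and Cdk2, its kinase partner (-0.51, limma FDR 1e-06), while Rrm2, a ribonucleotide reductase subunit, was at -0.31 (limma FDR 0.00129) and Orc1, an origin recognition subunit, at -0.26 (limma FDR 0.00108). S phase genes thus moved with the members from EpiLCs to PGCLCs, and their part in the members' decrease was not tested.

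Of 11 genes for histone mRNA 3′ processing, 3 rose and 4 fell from EpiLCs to XGFP+ PGCLCs. Slbp, whose product binds the stem-loop, had 6852 normalized counts in EpiLCs and 5450 in XGFP+ PGCLCs, a log2 fold change of -0.33 (limma FDR 3.0e-04), after 0.31 from ESCs to EpiLCs (limma FDR 5.9e-04). Between XGFP- and XGFP+ PGCLCs 1 was lower, Cstf2, an X-linked cleavage factor gene (-0.55, limma FDR 1.1e-08). Of 7 transcription genes 2 rose and 1 fell from EpiLCs to XGFP+ PGCLCs, and Npat, the coactivator of histone genes, was at 0.26 (limma FDR 4.6e-04) and Hinfp, the H4 promoter factor, at 0.58 (limma FDR 5e-07). Of 5 decay genes 1 rose and 2 fell, Eri1, the exonuclease that trims the stem-loop, by 0.8 on the log2 scale (limma FDR 6.5e-12).

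Of 21 histone chaperone genes, 6 rose and 7 fell from EpiLCs to XGFP+ PGCLCs, near the share of all genes, 6 and 11 in XGFP- PGCLCs, and 5 were lower and none higher in XGFP- than in XGFP+ PGCLCs. The largest of those were Atrx (-0.87, limma FDR 1.6e-07) and Rbbp7 (-0.45, limma FDR 3.3e-06), both X-linked, and Hat1 (-0.54, limma FDR 1.7e-06), a histone acetyltransferase gene. Of 11 variant histone genes outside the clusters, 2 rose and 5 fell from EpiLCs to XGFP+ PGCLCs. H1f0, the linker histone of slowly dividing cells, was at 1.28 from ESCs to EpiLCs (limma FDR 3.4e-08), -1.21 from EpiLCs to XGFP+ PGCLCs (limma FDR 5.3e-08) and 0.78 between XGFP- and XGFP+ PGCLCs (limma FDR 4.3e-05). H2afz (H2A.Z) fell by 1.45 on the log2 scale from EpiLCs to XGFP+ PGCLCs (limma FDR 1.9e-11). H2afy, 1 of the 2 that rose, went the other way by 3.14 (limma FDR 1.1e-14), from 1184 to 10274 normalized counts.

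The mus fraction of allelic reads, whose depth is unknown, was listed for 26 members and 4 H3 genes under older identifiers. Most members stood near equal shares in all groups, such as Hist1h1e at 0.45 ± 0.0184 in ESCs and 0.504 ± 0.00836 in XGFP- PGCLCs and Hist1h2bb at 0.486 ± 0.00164 and 0.488 ± 0.00686 (SD, n = 4). Some were skewed in every group: group means of Hist1h1d ran from 0.794 ± 0.0248 in XGFP+ PGCLCs to 0.892 ± 0.0364 in EpiLCs. Hist1h2ae stood at 0.894 ± 0.0422 to 0.921 ± 0.0457, Hist1h2br at 0.732 ± 0.0506 to 0.783 ± 0.0208, and Hist1h4n on the other side at 0.102 ± 0.0428 to 0.128 ± 0.0149. Only 15.6% of the read-length windows of Hist1h2br and 20.9% of those of Hist1h4n are unique, so their reads cannot be placed with certainty. Hist1h2aj and Hist1h2bf were listed near 0, Hist1h2bf at 0 in 11 of the 16 libraries, and Hist1h2al was at 0 in 14. Group means differed most for Hist1h2aa, with 0.421 ± 0.0521 in ESCs and 0.506 ± 0.0141 in EpiLCs. It had 0.292 ± 0.091 in XGFP+ and 0.662 ± 0.348 in XGFP- PGCLCs (SD, n = 4), where its counts were low. Of 448 genes of chromosome 13 with a ratio above 0, 35.7% had a mean outside 0.3 to 0.7, with a median of 0.468. A fraction of 0 can also stand for a gene without allelic reads.

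In the single-cell libraries, made with oligo-dT priming, cells with at least 4000 genes, 10000 reads and at most 5% mitochondrial reads were kept. These were 462 rOvary cells, from 93.6% of the constitutive, 86.8% of the XGFPhigh, 88.9% of the XGFPintermediate and 89% of the XGFPlow wells, and all 24 ESCs. Each population is 1 sample, so there is no test, and the 95% Poisson intervals cover counting error only. Germ cell markers were present, with Dazl at 1968, 1692, 3107 and 2194 CPM (counts scaled to 1 M reads of the pooled cells) in that order and at 3.69 in ESCs. The 10 empty wells held 265 reads in all and 0 reads of the members, which allows up to 1.13% of them.

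The 53 members summed to 576 CPM (567 to 584) in constitutive, 421 (416 to 425) in XGFPhigh, 486 (481 to 490) in XGFPintermediate and 489 (484 to 494) in XGFPlow cells, and to 212 (206 to 218) in ESCs. Cells within a population differed more than the populations did: the quartiles of the summed level ran from 178 to 962 CPM in constitutive and from 174 to 597 in XGFPhigh cells. Going by the library names, all constitutive cells were on 1 sequencing lane, with a run of index numbers of their own. On that lane 14 XGFPhigh, 16 XGFPintermediate and 15 XGFPlow cells had 494, 509 and 516 CPM, all below the constitutive cells, and the cells of these populations on the other lane had 408, 481 and 485. Constitutive cells also had the lowest median depth of the rOvary populations, 354149 reads against 636623 to 645474. On the shared lane the other populations had 855927 to 877858. Depth and library batch thus cannot be told apart from the population, also within that lane. The rank correlation across cells of the members' sum with that of 20 S phase genes was 0.57 in constitutive, 0.18 in XGFPhigh, 0.32 in XGFPintermediate and 0.24 in XGFPlow cells, over cells that share depth and library.

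A handful of members gave most of these reads. Hist1h4d held 28% of them, with 188.7 CPM (183.9 to 193.5), 127.6 (125.2 to 130.1), 144.1 (141.6 to 146.7) and 107.3 (105.0 to 109.6) in constitutive, XGFPhigh, XGFPintermediate and XGFPlow cells. On the lane of the constitutive cells XGFPhigh cells had 189.4 CPM of Hist1h4d, close to the constitutive value, and on the other lane 117.1. XGFPintermediate and XGFPlow cells had 125.7 and 115.7 CPM of Hist1h4d on the shared lane. Hist1h2ae held 16.6%, with 73.8 to 88.9 CPM. Hist1h1e had 70.8 CPM (67.9 to 73.8) in constitutive cells and 29.4 to 39.3 in the other populations. Hist1h1a had 25.9 CPM (24.2 to 27.8) in constitutive and 12.5 (11.8 to 13.3) in XGFPlow cells, but on the lane of the constitutive cells XGFPhigh, XGFPintermediate and XGFPlow cells had 23.7, 2.31 and 24.5 CPM, so that these populations were in no fixed order. Hist1h1b had 32.7 to 44.9 CPM.

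In pooled CPM Hist1h1c was ordered the other way, with 21 CPM (19.5 to 22.7) in constitutive, 17.5 (16.6 to 18.4) in XGFPhigh, 39 (37.7 to 40.4) in XGFPintermediate and 63.5 (61.7 to 65.2) in XGFPlow cells. The median cell had 8.84, 5.19, 6.25 and 12.3 CPM in that order, so XGFPintermediate was below constitutive by this measure. Reads of Hist1h1c were found in 67%, 64%, 57% and 58.7% of the cells. A few cells carried much of it: without the 5 highest cells of each population the values were 12.6, 11.4, 25 and 39.2 CPM. In cells with natural-log normalized Dazl above 1 they were 20.8, 18, 29.5 and 38.1, and XGFPlow stayed highest. The order of XGFPhigh, XGFPintermediate and XGFPlow was the same on both lanes, with 10.6, 72 and 94.2 CPM on the lane shared with the constitutive cells and 18.6, 32.8 and 58.9 on the other. The tissue-type genes Hist1h2aa, Hist1h2ba and Hist1h1t were near the limit of detection. They had 0.525 to 2.07, 0.025 to 1.02 and 0 to 0.532 CPM in the rOvary populations, where 0 reads allow 0.0375 CPM in XGFPlow cells.

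Hist3h2ba stood apart. It had 1.02 CPM (0.696 to 1.44) in constitutive, 2.43 (2.11 to 2.79) in XGFPhigh, 1.7 (1.44 to 2.01) in XGFPintermediate and 37.2 (35.9 to 38.6) in XGFPlow cells. 11 XGFPlow cells above 100 CPM, ranging from 101.4 to 1124.9, held 91.6% of the XGFPlow reads of the gene, and 1 other rOvary cell was above 100 CPM. Those 11 cells, a group formed by this very level, had 0 reads of the germ cell markers Dazl, Ddx4, Dppa3 and Sycp3, which allows 0.565 CPM, while 99 of the other 110 XGFPlow cells had Dazl reads. Hist1h1c was at 285 CPM in the 11 cells, with reads in 6 of them, and at 47.7 CPM in the other 110 XGFPlow cells. Of the 7 gonadal somatic markers, only Fosb had reads in the 11 cells, in 1 of them. Their medians were 551055 reads and 5591 genes per cell, against 641459 reads and 7434 genes in XGFPlow cells with Dazl reads.

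The genes that led in these 11 cells, over XGFPlow cells with Dazl reads, were chosen after their values were seen and are given without a test. Npy (neuropeptide Y) had 2489 against 0.238 CPM, in 3 of the cells, Rtn1 2742 against 7.26, in 10, Gap43 766 against 0, in 8, Stmn2 1636 against 6.75, in 8, and Dcx 509 against 0, in 9. These are genes known from neurons. The other 11 XGFPlow cells without a Dazl read had 1.36 CPM of Npy, 54 of Rtn1, 0 of Gap43, 29.7 of Stmn2 and 58.6 of Dcx, and 23.9 CPM of Hist3h2ba, between the 11 cells and those with Dazl reads except for Gap43. Hist3h2ba itself ranked 22 by this ratio. In XGFPlow cells with Dazl above 1 it stood at 1.14 CPM, close to the other populations, so the XGFPlow value of this gene rests on cells without germ cell marker reads.

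**Figure D4:**
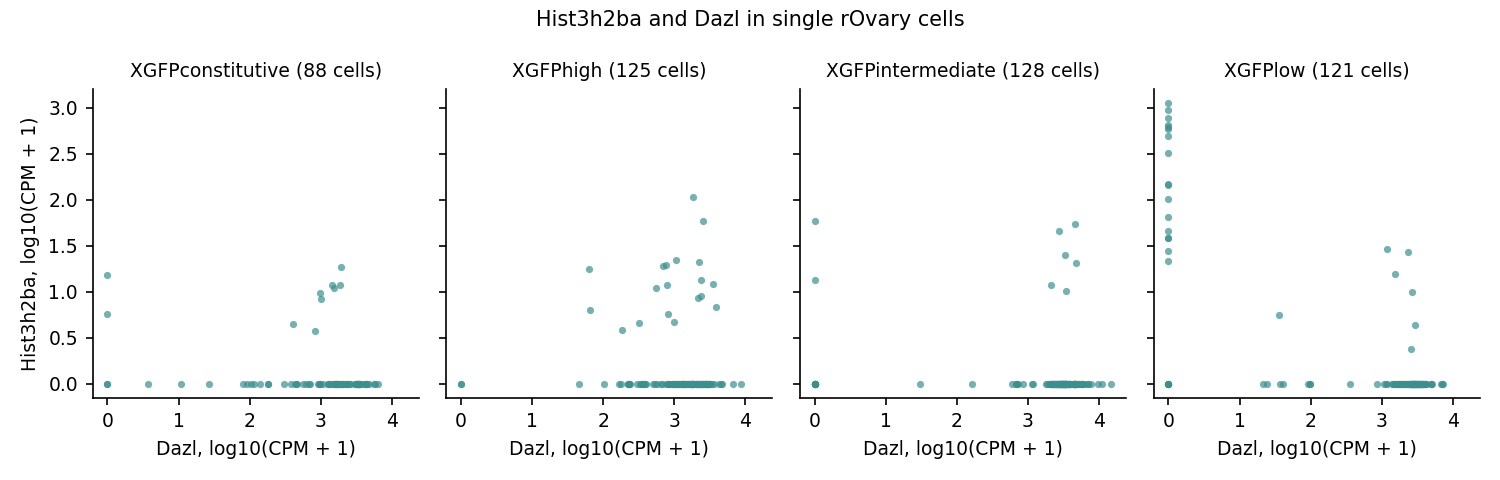
Level of Hist3h2ba (y axis) against Dazl (x axis), both as log10(CPM + 1), in the single rOvary cells of the 4 sorted populations, one point per cell. Cells above 100 CPM of Hist3h2ba lie at a Dazl level of 0 in the XGFPlow panel, and 1 such cell with Dazl reads lies in the XGFPhigh panel.

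ESCs were measured in both kinds of library, so their levels can be set side by side. Over 50 genes measured both ways, which here include the 4 H3 genes under older identifiers, the sum was 6601 ± 567 CPM in bulk total RNA (SD, n = 4) and 212 CPM (206 to 217) in the 24 single ESCs, a ratio of 31.2. The median of the 44 members with a read was 109.1-fold higher in bulk, where the median of 7594 genes with a read and above 10 CPM in bulk was 1.36-fold higher. The other 6 members had no read in the single ESCs, where 0 reads allow 0.115 CPM. Culture, read length and annotation also differ between the 2 kinds of library and cannot be told apart from the priming.

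The gap differed greatly between members. It was smallest for Hist1h2ae, with 72.9 CPM in bulk and 43.7 in single ESCs (1.67-fold), followed by Hist1h2ac (3.49-fold), Hist3h2ba (4.98-fold) and Hist1h4d (5.56-fold). It was 360-fold for Hist1h3e, with 346 against 0.961 CPM, and the H4 gene Hist1h4f had 161 CPM in bulk and 2 reads in single ESCs, 0.0769 CPM (0.00931 to 0.278). Of the 6 genes known to give polyadenylated mRNA, Hist1h2bc was 21.8-fold and Hist1h2be 47-fold higher in bulk, below the median member, and Hist1h1c 115.8-fold and Hist1h4i 130.6-fold, above it. Hist3h2a had 1 read in single ESCs, 0.0384 CPM (0.000973 to 0.214) against 0.793 in bulk, and Hist2h2be had none against 0.312 in bulk. The rank correlation between the library types over the 50 members was 0.55. The single-cell values therefore describe the RNA that entered oligo-dT primed libraries.

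**Figure D5:**
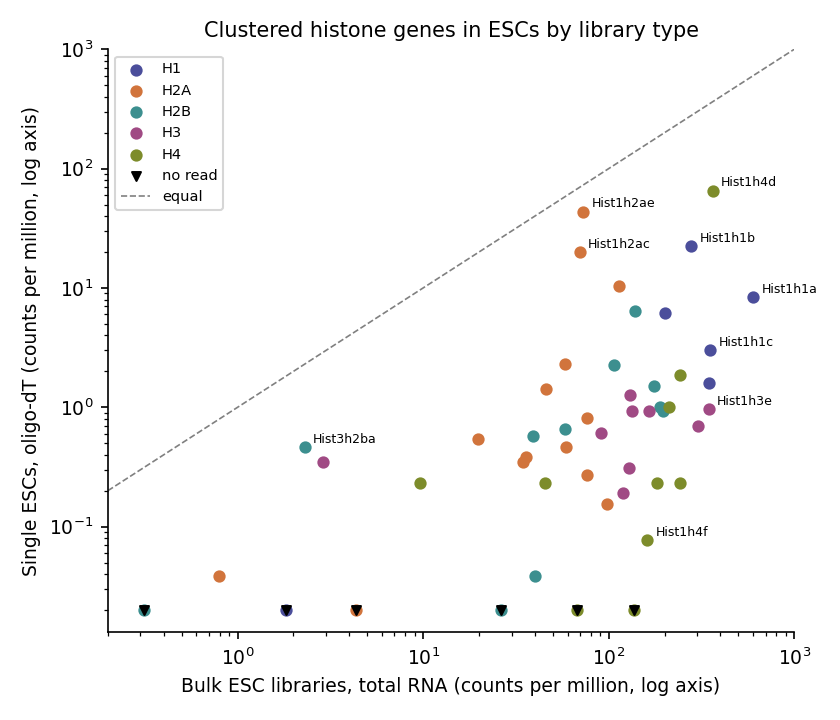
Each of the 50 genes measured in ESCs by both library types, including the 4 H3 genes under older identifiers, with the mean of 4 bulk total RNA libraries (x axis) and the pooled level of 24 single cells (y axis), both in CPM on log axes; triangles mark members without a read in single cells, and the dashed line marks equal levels. All members lie below the line, Hist1h2ae nearest to it at 72.9 and 43.7 CPM.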

How the data were processed

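Bulk total RNA was sequenced in 4 libraries each of ESCs, EpiLCs and XGFP+ and XGFP- PGCLCs. The authors aligned 125-base stranded reads to SNP-masked mm10 with STAR, counted genes with HTSeq 0.6.1 and deposited counts divided by DESeq2 1.16 size factors, which are used as normalized signal. Whole reads were recovered from the steps of these values in every library (100.0% within 0.01 read), giving 29.8 M to 46.5 M reads. 4 columns of another cell type were not used. The deposited allelic values are fractions of reads from the mus allele, without depths. The deposited single-cell values are counts per gene and well (552 wells, oligo-dT priming). Whether HTSeq used strand is not given in the sources used here.

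The members and gene lists were chosen with earlier results of these data known. Symbols came from GENCODE vM21. limma 3.58.1 (R 4.3.3) was fitted with trend to log2(normalized count + 1) of the 16 libraries by group, for 16281 genes with a mean above 10 normalized counts, and called at a Benjamini-Hochberg FDR below 0.001. The ± after a fold change is its SE. All 60 bulk members passed the mean filter. Genes were named if they were among the 3 highest of a class, among the 3 largest called changes each way in a comparison, a tissue-type or polyadenylated histone gene, or among the 5 highest in single cells; in each other list at most 4 genes with the largest difference between XGFP- and XGFP+ PGCLCs were allowed. Members named outside this rule were chosen after their values were seen, such as Hist1h2bf, Hist1h2an, Hist1h2ad, Hist1h2ag, Hist1h2ac, Hist1h4k, Hist1h4f and those of the allelic paragraph. The same holds for the list genes Slbp, Npat, Hinfp, Eri1, H2afz and H2afy where they were outside it. On simulated data the limma fit recovered 99% of 200 genes changed 4-fold between XGFP- and XGFP+ PGCLCs among 16281, and called 0 unchanged genes. The simulated libraries were independent of each other, and only genes with higher mean counts were changed. The simulation therefore does not cover smaller changes, or libraries that share a clone or deviate together. edgeR 4.0.16 and DESeq2 1.42.0 on recovered reads, other filters, pseudocounts and scalings, the replicate block and leaving out each library were tried as alternatives. Same-numbered XGFP+ and XGFP- libraries deviated together from their group means (r = 0.253, 0.135, 0.2 and 0.307, other pairs -0.0743 on average). The main fit nevertheless had no pairing, and the numbers entered only through the replicate block, an alternative. Single-cell levels are pooled CPM with exact 95% Poisson intervals, and 0 counts are given the limit of 3 reads.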

Additional observations from a re-analysis of the deposited data

Results flagged for a closer look

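Among the sets of 4 libraries (each named member, class sum and the total in each group), 7 (5.65% of the sets) held a library whose distance from the nearest other exceeded Dixon's 95% limit, close to the 5% (1 in 20) that chance gives. EpiLC replicate 1 was high in Hist1h2ba, the TH2B gene, with 2415 normalized counts against 1438 to 1500, and in the H2A sum, with 49500 against 30351 to 33478. XGFP+ PGCLC replicate 2 was low in the H2B genes Hist1h2bg (6828 against 8476 to 8671) and Hist1h2bk (4139 against 5314 to 5506), and XGFP- PGCLC replicate 2 was low in Hist1h2bb (6990 against 7953 to 8069). Hist3h2ba was low in ESC replicate 1 (70.7 against 91.5 to 95) and high in XGFP- PGCLC replicate 1 (246 against 204 to 211), in both cases within its group's side of the comparisons given above.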

How the results depend on the processing

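Of 50 called pairs of a named member and a comparison, 41 kept the call under all alternatives tried and 9 lost it under at least 1, with 0 reversals; 46 of 845 values lost the call, 33 of them on leaving out a library. With an added limit of 1 on the absolute log2 fold change, 6 members rose from ESCs to EpiLCs, 12 fell and 0 rose in XGFP+ PGCLCs and 16 fell and 0 rose in XGFP- PGCLCs against EpiLCs, 1 was lower in XGFP- than in XGFP+ PGCLCs and 4 were lower in XGFP+ PGCLCs than in ESCs, since most changes were below 2-fold. Without any 1 library, 9 to 10 members rose and 0 to 0 fell from ESCs to EpiLCs, 1 to 1 rose and 27 to 36 fell in XGFP+ PGCLCs, 1 to 2 rose and 30 to 37 fell in XGFP- PGCLCs, between the PGCLC groups 2 to 3 were higher and 3 to 3 lower in the XGFP- cells, and 0 to 1 were higher and 14 to 19 lower in XGFP+ PGCLCs than in ESCs. In XGFP- PGCLCs against EpiLCs 2 members rose under quantile normalization, the replicate block and DESeq2. In XGFP+ PGCLCs against ESCs 0 were higher with a pseudocount of 10, a mean above 100, the 2 groups alone, the replicate block or edgeR, a call that was Hist2h2be alone. With the replicate block 11 rose from ESCs to EpiLCs, and 36 fell in XGFP+ and 39 in XGFP- PGCLCs. XGFP- PGCLCs then had 4 higher and 3 lower members than XGFP+ PGCLCs, and 25 were lower in XGFP+ PGCLCs than in ESCs. Outside the pair of PGCLC groups not every same-numbered pair correlated above 0.1, so there the block does not stand for a pairing. Counting only members with at least 50% unique windows (added after seeing the data), 25, 25 and 15 were lower in XGFP+ and XGFP- PGCLCs against EpiLCs and in XGFP+ PGCLCs against ESCs, and with the older H3 identifiers 36, 38 and 20. The summed CPM in rOvary cells with Dazl above 1 was 601, 495 and 462 in constitutive, XGFPintermediate and XGFPlow cells, so that the order of the last pair turned; with all wells it was 427 in XGFPhigh, and as a mean over cells it was 430, 471 and 510 in XGFPhigh, XGFPintermediate and XGFPlow cells. The causes were not tested. Reads of near-identical genes, annotated lengths and oligo-dT priming limit the levels of single members.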
